A study of Capra hircus with 3 samples.

Results

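The genes described here are 7 cathepsins (CTSB, CTSD, CTSL, CTSS, CTSH, CTSK and CTSZ), the lysosomal membrane glycoproteins LAMP1 and LAMP2, and the transcription factor TFEB, in the mammary gland of lactating goats. They were listed by symbol and found through their goat NCBI gene IDs, and all 10 were found, out of 13023 protein-coding genes and 50041 loci with deposited values. Mammary tissue of 5 healthy Laoshan dairy goats, 4 years old and in the third lactation, was collected by surgery under xylazine at 10, 90 and 210 days after parturition, and RNA was extracted from each of the 15 samples. The RNA of the 5 goats was then mixed within each stage and made into 1 library per stage, named E (early lactation, 10 days), P (peak lactation, 90 days) and L (late lactation, 210 days). All 3 stages are lactating, with no dry gland among them, and each library is a pool of whole tissue. With 1 library per stage there is no spread between replicates, no p-value is given, and no difference below has a replicate check.

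Lysosomes are acidic organelles in which proteins, lipids and glycans taken up or discarded by the cell are broken down. Cathepsins are their main proteases. Most members of the family are cysteine proteases related to papain, whereas CTSD is an aspartic protease. LAMP1 and LAMP2 cover much of the inner face of the lysosomal membrane, and TFEB switches on many lysosome and autophagy genes when nutrient signalling through mTORC1 is low. In the mammary gland, lysosomal proteases are best known from involution after weaning, when secretory cells are removed, and tissue macrophages are another rich source of several cathepsins.

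Which library is peak and which is late lactation was not settled. The sample labels tie the P and L libraries to their columns of values, but the supplementary tables of the study gave these libraries ratios that ran the other way round. Libraries are named by their sample labels throughout, and exchanging P and L exchanges every statement on them. RNA of milk protein genes was lowest in the P library for CSN3, the kappa-casein gene, which had 25445 FPKM in E, 3989 in P and 27391 in L. LALBA, the alpha-lactalbumin gene, had 70053 FPKM in E and 15214 in P and was listed at 0 in L. FPKM are fragments scaled to transcript length and to the mapped reads of the library, so that levels of different genes can be set side by side. Read numbers per gene were not analysed here, and the precision of a single FPKM is therefore unknown. Of the deposited values with 7 significant digits, 95.7% in E, 99.3% in P and 97.3% in L ended in 5, as means of 2 shorter numbers would, and whether each FPKM is a mean of 2 estimates is not stated in the sources used here.

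The L library had the lowest level of 6 of the 7 cathepsins, and the P library had the highest level of all 7. Summed over the 7 genes, the level was 228 FPKM in E, 300 in P and 132 in L, so that P lay 2.27-fold above L and E lay 1.72-fold above L. LAMP1 and LAMP2 did not share this pattern and stayed within 1.21-fold and 1.08-fold between any pair of libraries. TFEB was lowest in L, at a level 1.51-fold below E and 1.70-fold below P.

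**Figure D1:**
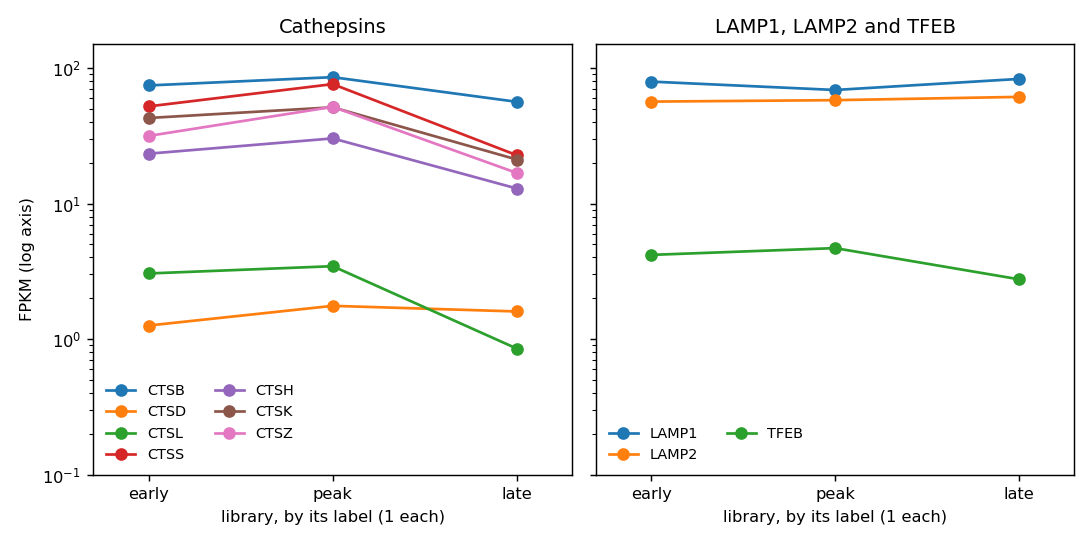
FPKM (log axis) of the 7 cathepsins (left) and of LAMP1, LAMP2 and TFEB (right) in the E, P and L libraries (labelled early, peak and late), 1 pooled library each, with no error bars because there are no replicates. CTSS, CTSK, CTSZ and CTSH lie close together and lowest in the library labelled late, while LAMP1 and LAMP2 run between 56.4 and 82.9 FPKM.

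CTSB, which cuts proteins inside the chain and also trims their ends, was the most abundant cathepsin in each library. It had 74.2 FPKM in E, 85.4 in P and 56.2 in L, and its extremes lay 1.52-fold apart. It ranked above 96.5%, 98% and 94.8% of the protein-coding genes above 0 in these libraries. Its share of the summed cathepsin FPKM was 32.5% in E, 28.5% in P and 42.5% in L, the largest share in the library in which the other abundant cathepsins were low. The gene is listed on scaffold NW_005100729.1 from 4544794 to 4553452.

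CTSS, a protease of antigen-presenting cells that trims the invariant chain of MHC class II, had 52 FPKM in E, 75.9 in P and 22.7 in L. The L value was the lowest by 2.29-fold against E and by 3.34-fold against P. CTSK, a collagen-degrading cathepsin known from osteoclasts and also made by fibroblasts and macrophages, is listed next to it. CTSK lies on scaffold NW_005100634.1 from 2255440 to 2269185 and CTSS from 2284878 to 2309416, with 15692 bases between them. CTSK had 42.7 FPKM in E, 51.2 in P and 21.1 in L, a ratio of 2.03 between E and L and of 2.43 between P and L. The ratio of CTSK to CTSS was 0.821 in E, 0.674 in P and 0.927 in L, so the neighbours kept their order in each library. ARNT, a transcription factor gene listed 1129 bases from CTSK on its other side, had 12.4, 13.9 and 11.4 FPKM. It too was highest in P and lowest in L, but its values lay closer together.

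CTSZ, a carboxypeptidase, had 31.5 FPKM in E, 51.6 in P and 16.8 in L. It showed the largest ratio of P over E among the 10 genes, 1.64, and P lay 3.08-fold above L. CTSH, an aminopeptidase, had 23.3 FPKM in E, 30.2 in P and 12.9 in L, and P lay 2.34-fold above L. Both genes were lowest in L, but E lay less than 2-fold above L for each, at 1.88-fold for CTSZ and 1.80-fold for CTSH.

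CTSL, an endopeptidase of most tissues, was low and had the largest ratios of the 10 genes. It had 3.05 FPKM in E, 3.45 in P and 0.852 in L, so that E lay 3.58-fold and P 4.05-fold above L. Fold changes at such levels rest on fewer reads per length than those of CTSS or CTSB. CTSV, a close relative of CTSL, had 17 FPKM in E, 14.9 in P and 15.5 in L, and reads that fit both genes could have been assigned to either, so the level of CTSL is uncertain. CTSD, the aspartic protease, was lower still in E and P. Its 1.26 FPKM in E, 1.76 in P and 1.60 in L ranked above 12.4%, 13.6% and 17.2% of protein-coding genes, and L did not lie below E. The deposited locus of CTSD spans 4949 bases, on scaffold NW_005100981.1 from 321599 to 326547. An unannotated locus of 277 bases, XLOC_050375, lies 2655 bases away and had 5.92, 15 and 7.57 FPKM in E, P and L. Whether it belongs to CTSD was not tested, so the level of CTSD is uncertain too.

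LAMP1 had 79.2 FPKM in E, 68.7 in P and 82.9 in L, and LAMP2 had 56.4, 57.8 and 61.1 FPKM. Both ranked above at least 95.1% of the protein-coding genes in each library. The ratio of LAMP2 to LAMP1 varied 1.18-fold over the libraries. Against LAMP1 in the same library, CTSS varied 4.03-fold, from 1.11 in P to 0.275 in L, and CTSB varied 1.83-fold, from 1.24 to 0.678. These ratios within a library do not depend on how the libraries are scaled. They were chosen after the values had been seen.

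TFEB had 4.18 FPKM in E, 4.69 in P and 2.76 in L, below the levels of LAMP1 and LAMP2 in each library. It is listed on scaffold NW_005100916.1 from 13232464 to 13239158. Starting 171 bases beyond it, 9 unannotated loci share 1 span of 40345 bases. One of them, XLOC_043544, had 1.71 FPKM in E, 17.6 in P and 3.97 in L, while the other 8 lay between 0.723 and 3.22 FPKM. Neither the strand of these loci nor their relation to TFEB was analysed here. No locus overlapped any of the 10 genes. Within 20 kb there were 37 pairs of one of the 10 genes and a neighbouring locus, the closest being CTSZ and NELFCD, with 3 bases between them. NELFCD, a subunit of the elongation factor NELF, had 14.9, 13.4 and 12 FPKM and did not share the pattern of CTSZ.

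Between the E and P libraries, 0 of the 10 genes differed at least 2-fold. Of all protein-coding genes above 0 in either library, 10.9% were at least 2-fold higher and 6.80% at least 2-fold lower in P. The log2 ratios of P over E ran from -0.20 for LAMP1 to 0.71 for CTSZ, with a median of 0.23, and 9 of the 10 were above 0. The median over all protein-coding genes was 0.0084. Among genes that reached 1 FPKM in both libraries, the ratio of CTSZ was higher than that of 87.5% of genes, and those of CTSS and CTSD were higher than that of 82.6% and 80.7%.

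Between the E and L libraries, 3 of the 10 genes (CTSL, CTSS and CTSK) were at least 2-fold lower in L, and 0 were at least 2-fold higher. In all protein-coding genes these shares were 6.74% lower and 1.97% higher. The median log2 ratio of L over E was -0.72 over the 10 genes and -0.0327 over all protein-coding genes. With at least 1 FPKM required in both libraries, CTSL dropped out and 2 of 9 genes remained at least 2-fold lower, against 2.19% of 11234 genes. In that set of genes, 1.26% had a lower ratio than CTSS, 2.11% than CTSK, 2.88% than CTSZ and 3.44% than CTSH.

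Between the P and L libraries, 5 of the 10 genes (CTSL, CTSS, CTSZ, CTSK and CTSH) were at least 2-fold lower in L and 0 were at least 2-fold higher. In all protein-coding genes, 17.4% were at least 2-fold lower and 8.56% at least 2-fold higher in L, so large differences were common between these libraries. The median log2 ratio was -1.0 over the 10 genes and -0.0261 over all protein-coding genes. The log2 ratios of L over P were -2.02 for CTSL, -1.74 for CTSS, -1.62 for CTSZ, -1.28 for CTSK and -1.23 for CTSH. They were -0.76 for TFEB, -0.60 for CTSB, -0.14 for CTSD, 0.08 for LAMP2 and 0.27 for LAMP1. When 1 FPKM was required in both libraries, 4 of 9 genes were at least 2-fold lower, against 10.4% of 11200 genes. The 3 comparisons share libraries, so the counts are not independent of each other.

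**Figure D2:**
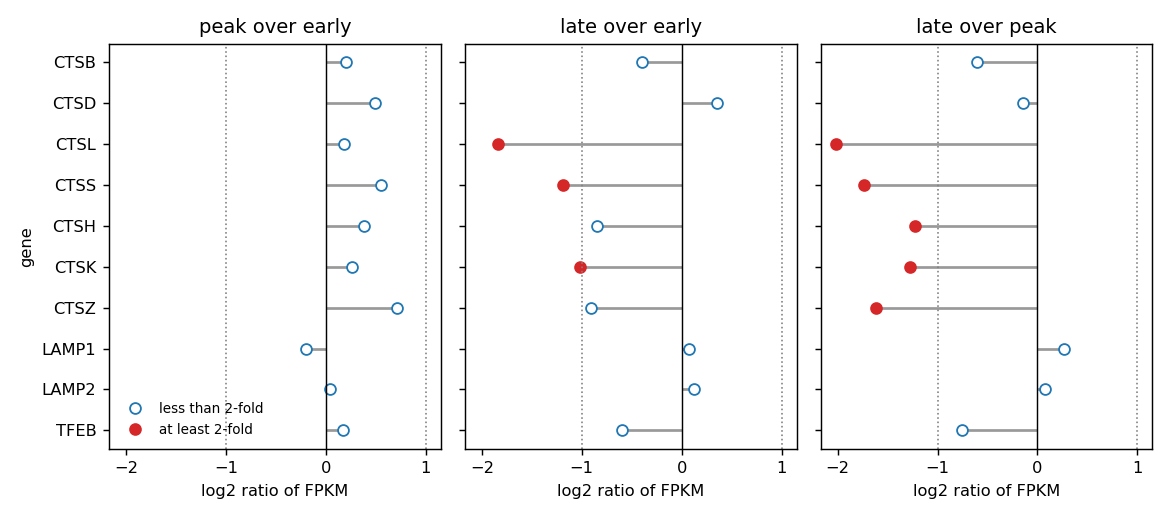
Log2 ratio of FPKM for each of the 10 genes in the comparisons P over E, L over E and L over P, by library label, with dotted lines at 2-fold. Filled points are at least 2-fold apart, which holds for 0, 3 and 5 genes from left to right, all of them cathepsins that are lower in the library labelled late.

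The scale of the libraries bears on the genes that differed little. Each library was also scaled to its summed FPKM of protein-coding genes, which was 478221 in E, 275836 in P and 421182 in L. These sums include milk protein genes such as LALBA, with 70053 FPKM in E, 15214 in P and 0 in L. All log2 ratios then moved by 0.79 for P over E, 0.18 for L over E and -0.61 for L over P. On that scale LAMP1 and LAMP2 were lower in L than in P, at -0.34 and -0.53, and 5 of the 10 genes were at least 2-fold higher in P than in E, as were 37.1% of all protein-coding genes, against 1.99% lower. Any gene or list with a ratio of P over E slightly below 0, or of L over P slightly above 0, turns its sign on that scale if it lies within the shift.

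Most markers of immune cells were lower in L than in P, as all 7 cathepsins were. Of 12 macrophage markers 11 had values, none was at 0, and their summed level was 221 FPKM in E, 359 in P and 117 in L. All 11 were lower in L than in P, 9 of them at least 2-fold, against 17.4% of all protein-coding genes. Their median log2 ratio was -1.46. CSF1R, the receptor that macrophages need for survival, had 16.6, 25.6 and 7.55 FPKM in E, P and L. The ratio of CTSS to CSF1R was 3.14 in E, 2.97 in P and 3.01 in L and thus varied 1.06-fold, while that of CTSZ varied 1.17-fold, CTSK 1.40-fold, CTSH 1.45-fold, CTSL 1.63-fold and CTSB 2.23-fold. CD14, a receptor for bacterial lipopolysaccharide, had 12.4, 12.5 and 11.3 FPKM, and MSR1, a scavenger receptor, had 9.95, 6.64 and 6.45 FPKM. These were the 2 markers within 2-fold between P and L, and neither shared the pattern of CTSS. In P over E, 9 of the 11 had a log2 ratio above 0, but MSR1 (-0.59) went the other way. CD14 (0.01), ITGAM (0.0) and FCER1G (-0.02) hardly differed there. The ratios to CSF1R, 1 of the 11 markers, were also chosen after the values had been seen, and ratios to the other markers are not given.

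**Figure D3:**
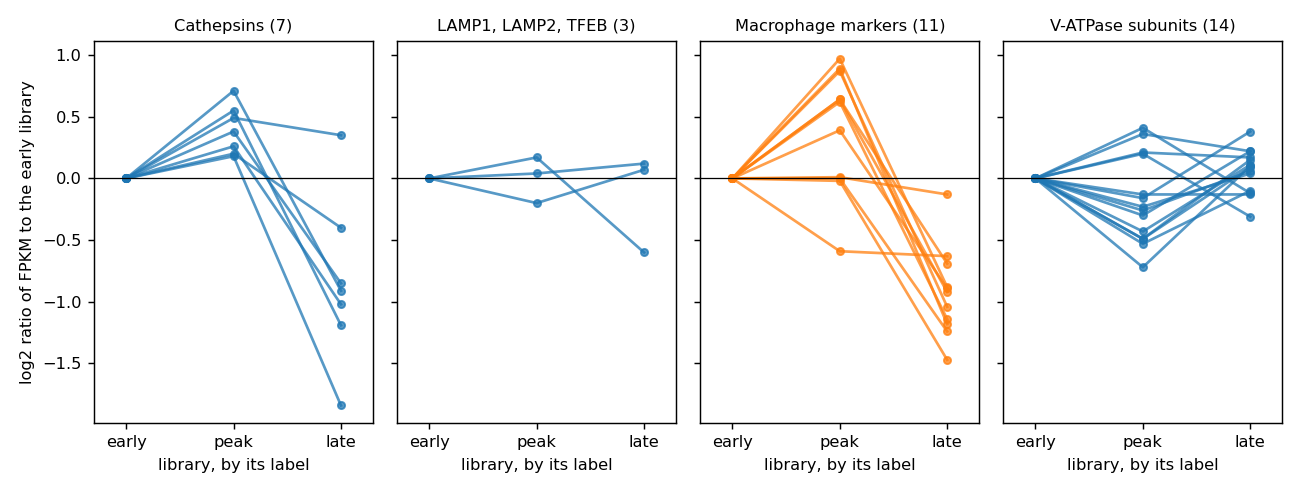
Log2 ratio of FPKM to the library labelled early, for 7 cathepsins, for LAMP1, LAMP2 and TFEB, for 11 macrophage markers and for 14 subunits of the proton pump, 1 line per gene over 1 library per stage. All 11 macrophage markers and 6 of the 7 cathepsins lie below 0 in the library labelled late, while the pump subunits stay between -0.31 and 0.38 there.

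Of the 7 other leukocyte markers above 0 in each library, 6 were at least 2-fold lower in L than in P, against 17.4% of all protein-coding genes. Among them was PTPRC, the pan-leukocyte phosphatase CD45, with 17.6, 39.9 and 8.08 FPKM in E, P and L. CD3E was listed at 0 in E and P, and FLT3 in L. The summed level of all 9 leukocyte markers was 310 FPKM in E, 550 in P and 361 in L, most of it from JCHAIN of plasma cells. JCHAIN had 266, 429 and 337 FPKM and was higher in L than in E. The 7 fibroblast markers summed to 680, 574 and 561 FPKM. Their median log2 ratio was -0.57 for P over E and 0.32 for L over P, and COL1A1, COL1A2, COL3A1 and LUM were lower in P than in E. PDGFRA went against these, with 13.7, 28 and 11.3 FPKM, as did DCN and PDGFRB, and the ratio of CTSK to PDGFRA was 3.11 in E, 1.83 in P and 1.87 in L. Of 9 markers of secretory epithelium, 5 (CSN3, CSN1S1, LALBA, BTN1A1 and ELF5) were at least 2-fold lower in P than in E, against 6.80% of all protein-coding genes. The median log2 ratio over the list was -1.06. The keratin genes KRT8 (0.64) and KRT18 (0.61) went the other way, and KRT19 (-0.09) hardly differed. The epithelial adhesion gene EPCAM had 77.8, 60 and 76.4 FPKM in E, P and L. Adipocyte markers had values for 3 of 5 genes, ADIPOQ, PLIN1 and CIDEC. All 3 were at least 2-fold lower in L than in E, against 6.74% of all protein-coding genes, with a median of -1.45. PLIN1 and CIDEC were below 1 FPKM in L, at 0.468 and 0.247. ADIPOQ alone had at least 1 FPKM in both libraries, where 2.19% of all protein-coding genes were at least 2-fold lower. Their summed level was 18.1, 5.85 and 6.41 FPKM in E, P and L. The 6 myoepithelial markers summed to 260, 255 and 264 FPKM, and the 5 endothelial markers with values to 123, 111 and 135 FPKM. The part of these cell types in the cathepsin levels was not tested, and in whole tissue fewer cells of a type and less RNA per cell cannot be told apart.

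Of 12 other lysosomal proteases listed, 10 had values, and 9 of these were higher in P than in E while 8 were lower in L than in P. Of the 10, 4 were at least 2-fold lower in L than in P, which is 40% against 17.4% of all protein-coding genes. These were CTSW (log2 ratio -2.36), a cathepsin of cytotoxic lymphocytes, SCPEP1 (-1.44), CTSO (-1.30) and CTSC (-1.29), which activates granule proteases of leukocytes. CTSW was also 2-fold higher in P than in E, with 10.7 FPKM in E, 22.3 in P and 4.36 in L. That is 10% of the list, against 10.9% of all protein-coding genes. CTSW and SCPEP1 were at least 2-fold lower in L than in E, at -1.30 and -1.07, which is 20% against 6.74%. CTSA, the protective protein of beta-galactosidase, CTSF and CTSV differed less than 1.5-fold between any pair of libraries, for example 21.6, 22.5 and 22.6 FPKM for CTSF. CTSO followed CTSW in P over E, at 0.75, and CTSV was lowest there, at -0.19. LGMN, the asparagine endopeptidase that processes cathepsins, had 14.1, 17.4 and 9.59 FPKM.

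Cathepsin inhibitors had values for 3 of 5 listed genes. CSTA, a cytosolic inhibitor of cysteine cathepsins, had 1.04, 1.39 and 0.289 FPKM in E, P and L and was at least 2-fold lower in L than in either other library. That is 33.3% of the 3 genes, against 6.74% of all protein-coding genes relative to E and 17.4% relative to P. CST6, a secreted inhibitor, had 13.6, 11.1 and 17.5 FPKM, and CST7, the inhibitor of leukocytes, had 2.1, 3.05 and 3.58 FPKM. The log2 ratio of CST6 in L over P, 0.66, was hardly larger than the shift of -0.61 between the scales.

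Acid hydrolases and their cofactors, 35 genes, summed to 720 FPKM in E, 718 in P and 721 in L. Their median log2 ratio was 0.08 for P over E, -0.14 for L over E and -0.25 for L over P, and that of L over E turned to 0.04 on the scale of protein-coding FPKM. Between P and L, genes at least 2-fold lower in L included NAAA (-1.81), GALC (-1.30), LIPA (-1.28) and GM2A (-1.18), and IDS, which removes sulfate from heparan and dermatan sulfate, was 2-fold higher at 1.01. SIAE, with 0.93, was next. The shares of 14.3% lower and 2.86% higher lie below those of all protein-coding genes. LIPA, the acid lipase that frees cholesterol from lipoproteins, had 18.6, 22.7 and 9.33 FPKM. PSAP, the precursor of the saposins, was the most abundant of the list with 219, 190 and 248 FPKM. Between E and P, genes at least 2-fold higher in P included NAAA (1.45), and PLA2G15 (-1.04) was at least 2-fold lower, followed by SIAE at -0.83. The shares of the list were 5.71% higher and 2.86% lower, against 10.9% and 6.80% of all protein-coding genes. Between E and L no gene of the list was 2-fold apart, with extremes of -0.99 for LIPA, -1.0 for PLA2G15, 0.32 for GLB1 and 0.60 for IDS.

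Of 20 lysosomal membrane proteins other than LAMP1 and LAMP2, 4 were at least 2-fold higher in L than in P and 3 at least 2-fold lower. These are 20% and 15%, against 8.56% and 17.4% of all protein-coding genes, and the median log2 ratio was 0.21, which turned to -0.40 on the scale of protein-coding FPKM. Higher in L were SLC17A5 (1.38), the sialic acid exporter, CTNS (1.30), the cystine exporter, NPC1 (1.10), which moves cholesterol out of lysosomes, and ABCA2 (1.07). Lower in L were LAPTM5 (-1.86), a protein of haematopoietic cells, LAMP3 (-1.64), known from mature dendritic cells, and SIDT2 (-1.17). LAPTM5 had 33.1, 60.8 and 16.8 FPKM, and CD68, a lysosomal protein much used as a macrophage marker, had 3.47, 3.88 and 2.1 FPKM. CTNS and SLC17A5 were at least 2-fold lower in P than in E, and SIDT2 was at least 2-fold higher in P, where LAPTM5 came next at 0.88. These are 10% lower and 5% higher, against 6.80% and 10.9% of all protein-coding genes. LAMP3 alone of this list was at least 2-fold apart between E and L, at -1.17, which is 5% lower, against 6.74% of all protein-coding genes. LAPTM5 was next at -0.98, and the highest ratios there were 0.42 for ABCA2 and 0.41 for TPCN1. CD63 was the most abundant of the list, with 210, 189 and 236 FPKM.

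The V-ATPase pumps protons into lysosomes. All 14 of its 16 listed genes with values were within 2-fold in each comparison of the deposited FPKM, with a median log2 ratio of -0.24 for P over E, 0.09 for L over E and 0.37 for L over P. When libraries were scaled to protein-coding FPKM, the median of P over E turned to 0.55 and that of L over P to -0.24. ATP6V0D1 (0.82) and ATP6V1D (0.64) were highest and ATP6AP2 (-0.53) and ATP6V1B2 (-0.51) lowest in L over P. In P over E the extremes were ATP6V0D1 (-0.72), ATP6V1E1 (-0.53), ATP6V0A1 (0.36) and ATP6AP2 (0.41), and in L over E they were ATP6V1B2 (-0.31), ATP6V1F (-0.13), ATP6V0B (0.22) and ATP6V0A2 (0.38).

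Sorting of lysosomal enzymes by mannose 6-phosphate gave 9 genes, again all within 2-fold, and a median of 0.16 for L over P, which turned to -0.45 on that scale. IGF2R, the large mannose 6-phosphate receptor, had 32.5, 20.5 and 38.9 FPKM with a log2 ratio of 0.93 in L over P, and GNPTG had 0.61. NAGPA (-0.35) and GGA3 (-0.16) were lowest. In P over E, IGF2R (-0.67) and GGA2 (-0.52) were lowest and M6PR (-0.01) and NAGPA (0.67) highest, and in L over E, GGA3 (-0.20) and GGA2 (-0.16) were lowest and NAGPA (0.32) and GNPTAB (0.33) highest.

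**Figure D4:**
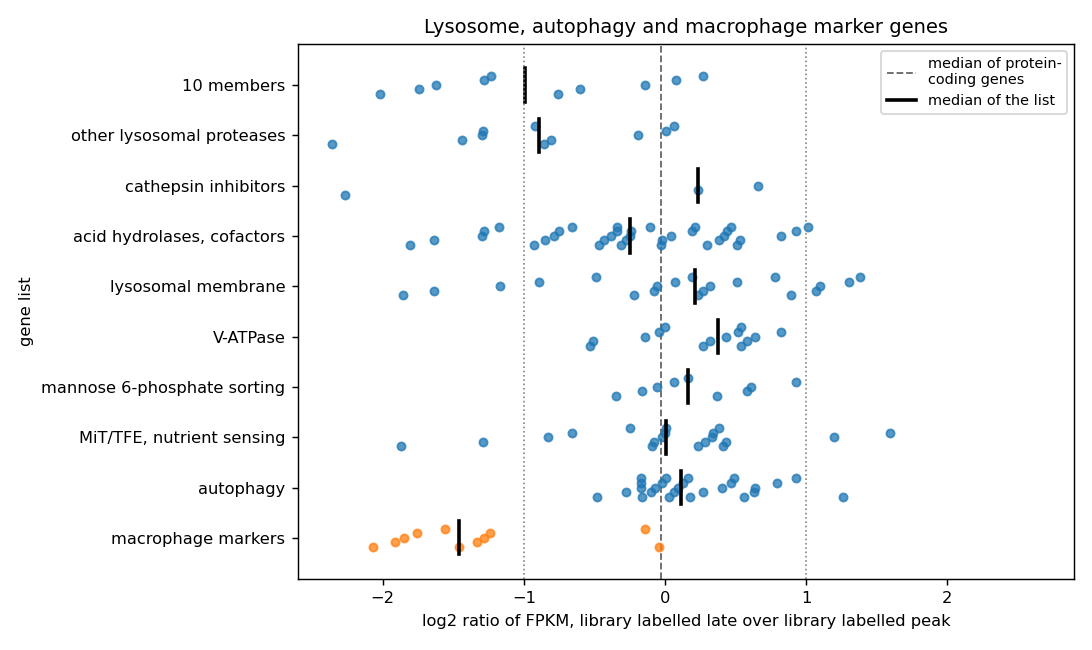
Log2 ratio of FPKM, library labelled late over library labelled peak, with 1 point per gene, a bar at the median of each list, dotted lines at 2-fold, and a dashed line at the median of all protein-coding genes (-0.0261). The list medians are -1.0 for the 10 members, -0.89 for the other lysosomal proteases and -1.46 for the macrophage markers, and between -0.25 and 0.37 for the other lists.

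TFEB belongs to the MiT/TFE family, and its relatives differed from each other. TFE3, which acts on the same genes, had 7.92, 8.67 and 8.13 FPKM in E, P and L. TFEC, known from macrophages, had 2.61, 5.53 and 1.51 FPKM, with log2 ratios of 1.08 for P over E and -1.87 for L over P. MITF had 3.98, 7.81 and 3.20 FPKM and a log2 ratio of -1.29 for L over P. Among the genes of lysosomal nutrient sensing, RRAGD, one of the Rag GTPases that recruit mTORC1 and a known TFEB target, had 14.2, 5.21 and 15.6 FPKM, opposite in direction to TFEC, with a log2 ratio of 1.59 for L over P. LAMTOR2, a subunit of the Ragulator complex, had 50, 25.4 and 58.5 FPKM, with log2 ratios of -0.98 for P over E and 1.20 for L over P. STAT3, which drives lysosomal changes in the involuting mouse gland, had 41.3, 40.9 and 38.6 FPKM. Over the 19 genes of this list with values, the median log2 ratio was -0.01, -0.03 and 0.01 for P over E, L over E and L over P. In L over E, TFEC (-0.78) and MITF (-0.31) were lowest, and LAMTOR2 and LAMTOR5 followed PPARGC1A, each at 0.23. PPARGC1A was the single one at least 2-fold apart between E and L, at 1.12 and with 0.754 FPKM in E and 1.64 in L. That is 5.26% of the list higher in L, against 1.97% of all protein-coding genes.

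Autophagy delivers cell contents to lysosomes, and 26 of its genes had values. Of these, ATG12 alone, which is joined to ATG5 to build autophagosomes, was at least 2-fold apart in any comparison. It had 38.8, 16.9 and 40.4 FPKM in E, P and L, and is 3.85% of the list. Of all protein-coding genes, 6.80% were at least 2-fold lower in P than in E and 8.56% higher in L than in P. GABARAPL1, an autophagosome membrane protein, followed with 79, 40.9 and 77.8 FPKM, whereas SQSTM1, the receptor p62, was highest in P with 98.2, 137 and 98.1 FPKM. ATG7 had 0.28 for P over E and -0.28 for L over P. Between E and L the log2 ratios of the list ran from -0.38 for ULK1 and -0.25 for GABARAP to 0.28 for MAP1LC3A and 0.32 for ATG13.

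Taking the 136 lysosome and autophagy genes outside the 10 together, 23 were at least 2-fold apart between P and L, 15 of them lower in L. That is 11% lower and 5.88% higher, against 17.4% and 8.56% of all protein-coding genes. Between E and P, 10 were at least 2-fold apart, 5 in each direction. That is 3.68% each way, against 10.9% of all protein-coding genes higher and 6.80% lower in P. Between E and L, 5 were at least 2-fold apart, 4 of them lower in L. That is 2.94% lower and 0.735% higher, against 6.74% and 1.97%. On the scale of protein-coding FPKM, 42 were at least 2-fold higher in P than in E and 32 at least 2-fold lower in L than in P, with 0 in the other direction. On that scale, 37.1% of all protein-coding genes were at least 2-fold higher and 1.99% at least 2-fold lower in P than in E. In L against P, 32.6% were at least 2-fold lower and 3.41% at least 2-fold higher, so both sets of counts go with the shift of the scale. The median log2 ratio of L over P was 0.02 over these genes, against -1.28 over the 7 cathepsins.

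The pattern of each of the 10 genes over the 3 libraries was compared with 116 of these genes that had a mean of at least 5 FPKM, by the distance between their pairs of log2 ratios of P over E and L over E. The nearest to CTSK were LIPA and SCPEP1, at distances of 0.04 and 0.12. The nearest to CTSS were SCPEP1 (0.22) and LIPA (0.33), to CTSH GM2A (0.12) and LIPA (0.17), and to CTSZ LAPTM5 (0.18) and CTSC (0.29). The nearest to CTSL lay farther off, with SCPEP1 at 0.80 and LIPA at 0.85. CTSB lay nearest to ATP6V1B2 (0.09) and NEU1 (0.16), and CTSD to GLB1 (0.08) and OSTM1 (0.12). TFEB lay nearest to PRCP (0.04) and ACP5 (0.06), LAMP1 to ATP6V1G1 (0.04) and ATP6V1A (0.06), and LAMP2 to ATG16L1 (0.02) and VPS11 (0.05). Of 7987 protein-coding genes with a mean of at least 5 FPKM, 2 were at least as near to CTSK as LIPA, with LIPA itself counted. Counted in the same way, with the named gene included, the number was 5 for TFEB and PRCP and 10 for LAMP2 and ATG16L1. It was 11 for CTSH and GM2A and 12 for CTSD and GLB1. The number was 13 for CTSS and SCPEP1, 24 for CTSZ and LAPTM5, 34 for CTSL and SCPEP1, 52 for CTSB and ATP6V1B2, and 73 for LAMP1 and ATP6V1G1.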

How the data were processed

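For each stage, 1 library from the pooled RNA of 5 goats was sequenced. Reads were cleaned by the authors, aligned with TopHat2 2.0.9 and Bowtie2 and assembled with Cufflinks 2.1.1, and the authors deposited FPKM from Cuffdiff, with tools and versions per the labels and the methods. The methods name a goat assembly of whole chromosomes, whereas the deposited loci lie on scaffolds with no assembly named, so coordinates are given as deposited.

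Symbols were looked up by gene ID among RefSeq genes of ARS1.2, which gave a match for 14403 of 15274 loci with a single ID, and loci of one ID were summed. Each of the 10 genes had 1 locus. Ratios were taken from the deposited FPKM, with 0 set to 0.001, and a difference of at least 2-fold was counted. No test was run, since each stage has 1 library.

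The 10 genes and the gene lists were chosen with earlier results of these data known. Named were the 10 genes, their nearest patterns, and the extreme and 2-fold different genes of each list with at least 1 FPKM in both libraries, except for items not reported here. Others given with values, such as LGMN, PSAP, CD63, CD68, TFE3 and STAT3, were picked after their values were seen. Fold counting was tested on simulated data with known differences, which checks the code only and not the counts in these libraries. Alternatives were other folds, pseudocounts, filters, scales, locus choices and an exchange of the P and L columns. Python 3.11.15, numpy 2.4.6, pandas 2.3.3 and matplotlib 3.10.9 were used.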

Additional observations from a re-analysis of the deposited data

How the results depend on the processing

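The counts of genes at least 2-fold apart are given for E and P, E and L, and P and L in this order, first for the 10 genes (0, 3 and 5 as deposited) and then for the 136 lysosome and autophagy genes (10, 5 and 23). At a fold of 1.5 they were 1, 6 and 7, and 33, 16 and 47. At a fold of 4 they were 0, 0 and 1, and 0, 0 and 2. These follow from the threshold. The share of all protein-coding genes is not given for these folds or for the pseudocounts, so the counts there cannot be set against it. Scaling to protein-coding FPKM gave 5, 2 and 7, and 42, 3 and 32, with all 42 higher in P and all 32 lower in L. A pseudocount of 1 gave 0, 2 and 5, and 6, 1 and 17. At least 1 FPKM in both libraries, a filter chosen after seeing the data, gave 0, 2 and 4, and 10, 3 and 22. Exchanging the P and L columns gave 3, 0 and 5, and 5, 10 and 23. It turned the log2 ratios of L over E to 0.18 for CTSL, 0.55 for CTSS and 0.26 for CTSK, and those of L over P to 2.02 for CTSL, 1.74 for CTSS, 1.23 for CTSH, 1.28 for CTSK and 1.62 for CTSZ. The medians of macrophage and leukocyte markers in L over P turned to 1.46 and 2.3, and those of leukocyte markers to -1.12 for P over E and 1.47 for L over E. A pseudocount of 0.1, centring on the median, at least 1 FPKM in either library, the top locus of each gene and loci listed once left each of the 6 counts within 1.5 times its value. The locus settings could not change the 10 genes, which have 1 locus each and share no coordinates with another entry. The filter on either library also kept all 10 in each comparison. Ratios of the 10 genes under these settings are therefore no check, though they are counted as kept below. Of 673 ratios and medians under an alternative, 320 kept their value to 2 decimals, 341 moved, and 12 that had been at least 2-fold turned sign. Those 12 all came from the exchange of the P and L columns and are given above. Ratios and medians below 2-fold that turned sign are counted among the 341. LAMP1 in P over E, for example, went from -0.2 to 0.59 when scaled to protein-coding FPKM. No paired analysis was possible because the 3 libraries have no replicates, and no library could be left out. Read numbers per gene were not analysed, which limits the precision known for low genes such as CTSL and CTSD.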
